A study of Mus musculus with 12 samples.

Results

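Interferon-stimulated genes are the genes that cells switch on after interferon binds its receptor. In these data, 52 of them were examined in cells sorted as CD206+ sdCAMs, that is, as subdural macrophages of leptomeninges and perivascular spaces. The members were listed by name as interferon targets of mouse cells, and each had to have at least 10 counts in at least 4 of the 12 libraries. All 52 listed genes passed, of 13724 genes that passed the same filter and 56735 gene names in the table. Every member had at least 10 counts in all 12 libraries, so none entered through a single group.

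Type I interferons bind the receptor pair Ifnar1 and Ifnar2, the kinases Jak1 and Tyk2 then start a signal in which a complex that contains Stat2 and Irf9 binds the interferon-stimulated response element (ISRE) in promoters. Interferon gamma acts through the receptor chains Ifngr1 and Ifngr2, and its signal reaches promoters at gamma-activated sites (GAS). The genes switched on include sensors of viral RNA and DNA, proteins that block viral entry, translation and replication, and feedback inhibitors such as Usp18. Macrophages of the brain and its borders are known to raise this programme in infection and ageing.

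The 12 bulk RNA-seq libraries came from brain without choroid plexuses of mice that all carried Mrc1CreERT2/CreERT2:R26tdT/tdT, a tamoxifen-inducible Cre at the Mrc1 (CD206) locus with a Cre-dependent tdTomato (tdT) reporter at Rosa26, and that all received tamoxifen 4 weeks before treatment. BLZ945, which enters the brain and inhibits the CSF-1 receptor, was given at 200 mg/kg for 7 days, other mice received vehicle for 7 days, and cells were harvested 8 weeks later. There were 3 groups of 4 libraries, namely vehicle tdT+, BLZ945 tdT+ and BLZ945 tdT- cells, with mouse labels F1, F2, M1 and M2. The tdT+ and tdT- libraries of a BLZ945 label came from the same mouse, whereas the vehicle mice were other animals. The labels state no age, and vehicle tdT- cells were not analysed here. A tdT- cell is one without the reporter, which a newly arrived cell and a resident cell that escaped labelling have in common.

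The libraries held 19969308 to 23395058 counts, and the members took 0.616% to 1.05% of them. Normalised counts, used throughout unless stated otherwise, are counts divided by the DESeq2 size factor of the library. The tdTomato entry had 0 counts in every library, so the sort could not be checked by its reporter. The summed level of 9 sdCAM markers, among them Mrc1 and Cd163, was 98742 to 151836 in BLZ945 tdT- libraries, against 276469 to 357410 in BLZ945 tdT+ and 241767 to 271738 in vehicle libraries, and 9 of 9 markers were lower in every tdT- library than in any tdT+ library. The 5 microglia markers (P2ry12, Tmem119, Gpr34, Sall1 and Sparc) went the other way in 5 of 5 genes. Their sum was 109513 to 254252 in BLZ945 tdT- libraries, highest in M1, against 50800 to 56773 in BLZ945 tdT+ and 35324 to 47317 in vehicle libraries. Markers of plasmacytoid dendritic cells, a cell type known for interferon secretion, summed to 11193 to 21346 in tdT- libraries against 4475 to 6286 in BLZ945 tdT+ libraries, of which Siglech, also a microglia gene, made up 11120 to 21250 in tdT- libraries, and the other 4 did not separate the groups, with Klk1 at 0 in all libraries and Ccr9 at 0 in all tdT- libraries. The BLZ945 tdT- library F2 also held 423109 normalised counts of 8 neutrophil markers, 36171 of 5 red blood cell markers and 39198 of 5 Ly6C-high monocyte markers, while the other 3 libraries of its group reached at most 93.9, 100.1 and 362. Red blood cell markers also summed to as much as 15807 in BLZ945 tdT+ and 8778 in vehicle libraries, both in F2. The letters F and M of the labels went with female and male cells. Xist, a transcript of female cells, had 861 to 4579 raw counts in F libraries and 0 in M libraries. The Y-linked gene Ddx3y had 0 in F libraries and 769 to 1803 in M libraries. In the vehicle library F2, 112 raw counts fell on the Y-linked gene Kdm5d and 0 on Ddx3y, Eif2s3y and Uty. In bulk libraries, fewer cells of a type and less RNA per cell cannot be told apart, and the part of microglia or neutrophil RNA in the member values was not tested.

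Promoters of the members show the sequence through which interferon acts. In the RefSeq table of promoters (GRCm38.p6, positions -250 to 50 relative to the annotated start), 42 of the 52 members had an entry. An ISRE core, searched as GAAANNGAAA on both strands, was present in promoters of 25 of these 42 genes (59.5%), against 3.99% of 27025 genes and 3.44% of 32851 promoters in the table. A GAS core, TTCNNNGAA, which reads the same on both strands, was present in 8 of the 42 (19%), against 9.55% of all genes. A match is a string of letters and does not show a bound site. These coordinates belong to GRCm38.p6, whereas the counts and all gene positions given further on belong to GRCm39. The promoters of the 4 members called lower in BLZ945 tdT- cells are shown because the comparisons turn on these genes, each 5′ to 3′ on the strand of its gene, with ISRE cores in capitals.
Gbp7 (chr3:142530086-142530385, + strand): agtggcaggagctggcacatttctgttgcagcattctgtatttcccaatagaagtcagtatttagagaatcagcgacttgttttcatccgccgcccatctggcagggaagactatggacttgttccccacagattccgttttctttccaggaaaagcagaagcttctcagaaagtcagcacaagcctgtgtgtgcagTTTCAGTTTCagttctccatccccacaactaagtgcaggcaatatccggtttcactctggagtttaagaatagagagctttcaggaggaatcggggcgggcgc
Ifi207 (chr1:173741760-173742059, - strand): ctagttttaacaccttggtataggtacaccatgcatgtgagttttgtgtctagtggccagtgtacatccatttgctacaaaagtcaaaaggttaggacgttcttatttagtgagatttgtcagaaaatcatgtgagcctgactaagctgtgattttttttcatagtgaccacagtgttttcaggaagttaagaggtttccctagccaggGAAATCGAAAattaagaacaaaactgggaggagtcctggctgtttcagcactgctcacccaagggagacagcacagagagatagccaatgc
Ifitm3 (chr7:141010695-141010994, - strand): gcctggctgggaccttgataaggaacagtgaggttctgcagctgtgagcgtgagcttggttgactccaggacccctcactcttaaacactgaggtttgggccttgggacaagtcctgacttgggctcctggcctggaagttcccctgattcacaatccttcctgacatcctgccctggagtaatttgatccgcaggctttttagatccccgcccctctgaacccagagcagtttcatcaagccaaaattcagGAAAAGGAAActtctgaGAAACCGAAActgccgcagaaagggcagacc
Bst2 (chr8:71537423-71537722, - strand): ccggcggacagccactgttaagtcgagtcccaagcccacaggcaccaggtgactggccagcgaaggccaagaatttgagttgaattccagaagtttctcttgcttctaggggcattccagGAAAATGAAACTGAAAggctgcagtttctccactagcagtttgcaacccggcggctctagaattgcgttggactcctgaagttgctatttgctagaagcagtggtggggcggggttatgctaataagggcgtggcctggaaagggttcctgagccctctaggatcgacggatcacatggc

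Gbp7 and Ifi207 each held 1 core, which began at positions -53 and -41, and Ifitm3 and Bst2 each held 2. In Gbp7 the core lay on the opposite strand. Shorter stretches of the promoters of Isg15, Ifit1, Ifit3 and Ifit3b are shown because they hold several cores in members that were not called in any comparison.
Isg15 (chr4:156200855-156200916, - strand): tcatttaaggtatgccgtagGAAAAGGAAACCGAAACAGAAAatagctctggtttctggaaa
Ifit1 (chr19:34640765-34640833, + strand): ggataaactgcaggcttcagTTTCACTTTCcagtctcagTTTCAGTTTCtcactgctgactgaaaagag
Ifit3 (chr19:34583353-34583436, + strand): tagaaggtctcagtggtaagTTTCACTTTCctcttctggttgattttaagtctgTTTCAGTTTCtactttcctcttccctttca
Ifit3b (chr19:34607749-34607832, + strand): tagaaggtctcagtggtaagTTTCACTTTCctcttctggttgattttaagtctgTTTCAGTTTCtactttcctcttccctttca

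Isg15 held 3 overlapping cores in a single run, and the stretches of the neighbouring copies Ifit3 and Ifit3b differed at 0 positions. The copies were also alike in their transcripts. Of the 50-base stretches in Ifit3 transcripts of the reference, 51.2% occurred in another gene, and for Ifit3b the share was 45%. The other members with more than 25% of stretches shared were Oas1a at 57.6%, Ifi211 at 72.8%, Ifitm2 at 48.5% and Ifi209 at 33.7%. The levels of these 6 members are uncertain, because reads that map to more than 1 place were not counted. Gbp7 shared 12.7%, Ifitm3 10% and Ifi207 7.29%. Parp9 and Dtx3l, whose proteins form a complex, overlapped by 458 exon bases on opposite strands, and reads there cannot be assigned because strand was not used. Igtp overlapped Irgm2 by 162 exon bases on the same strand.

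All role groups were expressed in vehicle sdCAMs, and membrane proteins that restrict viral entry and release stood highest per length. Levels between genes are given as TPM, that is, counts per exon length scaled to the same total in each library, computed from the counts. In vehicle libraries Ifitm3, which hinders the fusion of viruses with endosomes, was at 3264 ± 362 TPM (SD, n = 4), and Ly6e, a GPI-anchored surface protein, at 2397 ± 56.7 TPM. Bst2 (tetherin), which holds budding viruses at the cell surface, followed at 1779 ± 138 TPM and did not differ beyond its spread from Ifi27l2a at 1778 ± 159 TPM. The lowest members per length were Ifi44 at 4.97 ± 2.72 TPM, Oas3, an oligoadenylate synthetase, at 5.46 ± 2.4 TPM and Mx1, a GTPase that traps viral nucleocapsids, at 5.88 ± 4.24 TPM. These 3 did not differ beyond their spread.

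The other role groups were led by the following members in vehicle libraries. Among signal transducers Isg15, a ubiquitin-like protein that is attached to target proteins, was at 123 ± 20.05 TPM. Among sensors Oas1a, an oligoadenylate synthetase that activates RNase L, was at 98.7 ± 14.7 TPM. Slfn2 of the Schlafen family led the IFIT and other antiviral genes with 754 ± 66.6 TPM, while Ifit1, which binds foreign RNA ends, was at 48.2 ± 21.9 TPM. Ifi207 led the IFI200 family of nuclear DNA-binding proteins with 176 ± 25.5 TPM. Igtp led the inducible GTPases, which attack the vacuoles of intracellular pathogens, with 214 ± 30.5 TPM. Sp100, a component of nuclear bodies, led the last group with 49.2 ± 3.29 TPM.

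**Figure D1:**
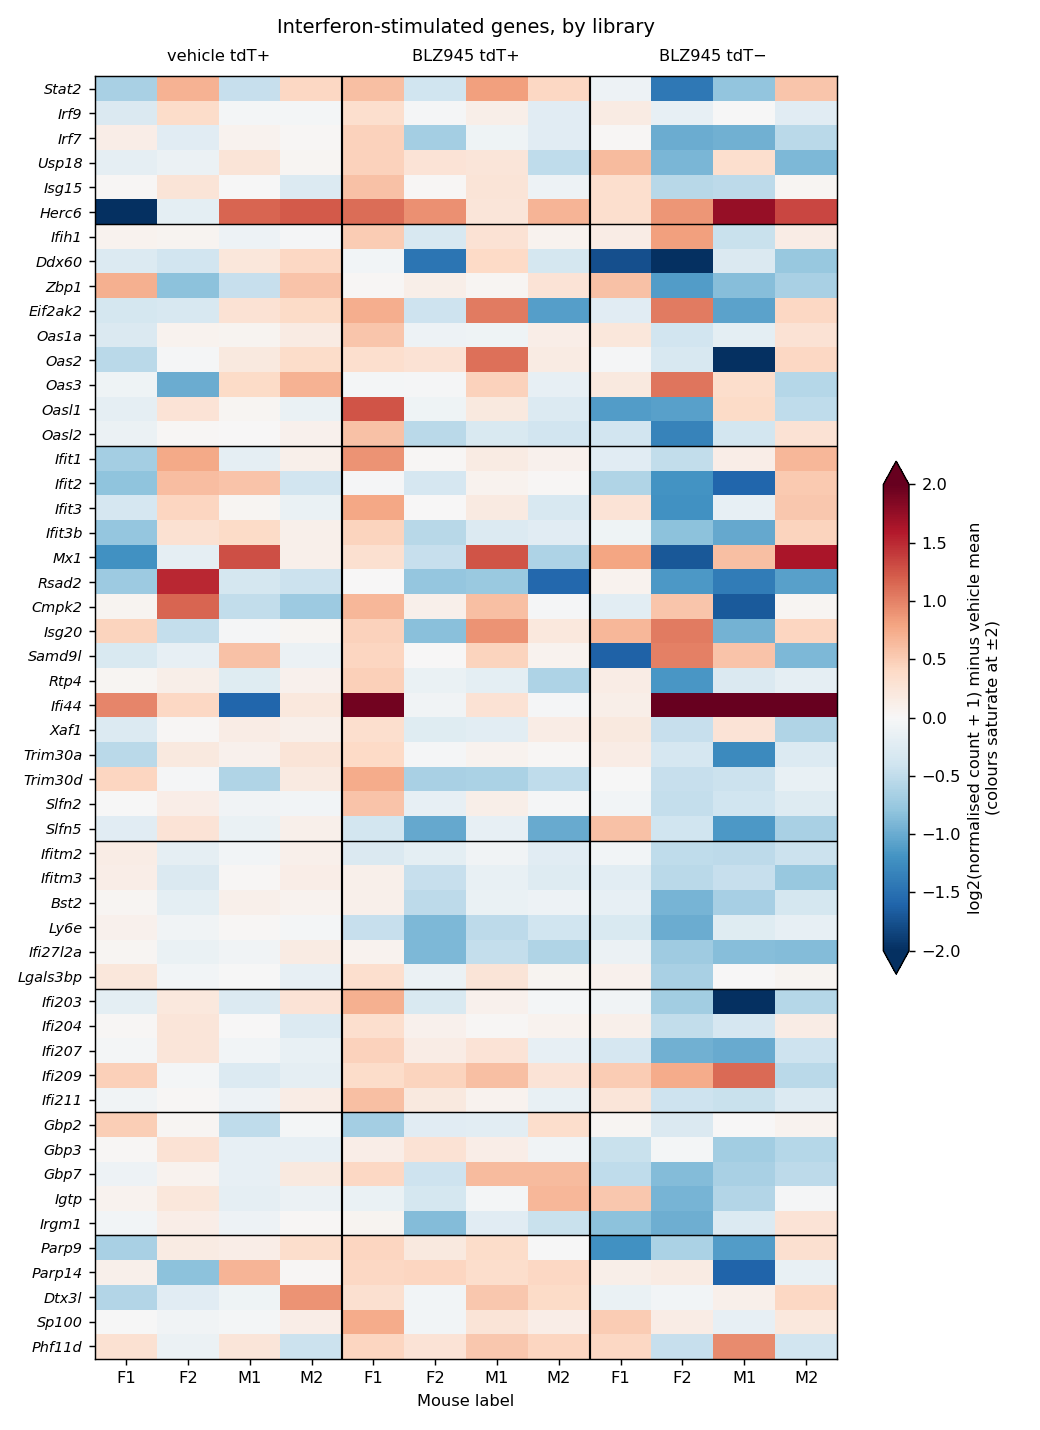
Each row is 1 of the 52 members, grouped by role, and each column 1 of the 12 libraries. Colour gives log2(normalised count + 1) minus the mean of the 4 vehicle libraries, red for higher and blue for lower. Blue is more frequent than red in the BLZ945 tdT- columns, and Ifi44 is deep red in 3 of the 4 tdT- libraries (F2, M1 and M2).

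BLZ945 tdT- cells were first compared with the tdT+ cells of the same mice. This asks whether the CD206+ tdT- sort held these transcripts at the level of the tdT+ sort. The sorts also differed in sdCAM and microglia markers, and the part of that difference in the member values was not tested. Of the 52 members, 2 were called lower and 0 higher. The background over all genes tested was 3.51% called lower and 2.86% called higher, beside 3.85% of members called lower. EdgeR called the same 2 members, and its background was 1.71% lower and 1.04% higher. A share of members that rests on 2 genes was not read further. A gene is called here when the Benjamini-Hochberg adjusted p of the DESeq2 Wald test, over all genes, does not exceed 0.05, whatever its fold change. In a data set simulated with dispersions that edgeR estimated from these libraries, DESeq2 called unchanged genes more often than this threshold allows, and edgeR did not. Such data follow the edgeR model and may favour edgeR, so they do not rank the 2 tools on the real libraries. Adjusted p-values of DESeq2 may still be too small here, and a call made by DESeq2 alone is read with more caution than one that edgeR shares. The 2 were Gbp7, a guanylate-binding GTPase of the interferon-gamma response, and Ifi207.

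Gbp7 (chromosome 3, 142236103 to 142255910, + strand) was at 4672, 2620, 5429 and 5420 normalised counts in BLZ945 tdT+ cells of F1, F2, M1 and M2, and at 2469, 1913, 2230 and 2432 in tdT- cells of the same mice. The groups did not overlap, although tdT+ F2 lay close to the tdT- libraries, and the tdT- library was the lower one in 4 of 4 mice. The log2 fold change of Gbp7 was -1.004 ± 0.21 (SE), with an adjusted p of 0.000104 in DESeq2 and 0.0142 in the edgeR quasi-likelihood test. Ifi207 (chromosome 1, 173550993 to 173569313, - strand) was at 6286, 5069, 5502 and 4071 in tdT+ cells and at 3622, 2344, 2263 and 3401 in tdT- cells. Here too the groups did not overlap and 4 of 4 mice went the same way. The log2 fold change of Ifi207 was -0.85 ± 0.19, with an adjusted p of 0.000361 in DESeq2 and 0.0193 in edgeR. Both stayed called without each of the 12 libraries in turn, also without the BLZ945 tdT- library F2 (adjusted p = 0.00122 and 0.00295, DESeq2). With the mouse as a replicate block, DESeq2 called 5 members lower (Gbp7, Ifi207, Bst2, Slfn2 and Ddx60; 9.62%), against a background of 4.26% called lower and 2.95% higher. EdgeR with the block called 0, where the background was 0.306% and 0.321%, with adjusted p of 0.0838 for Gbp7 and 0.142 for Ifi207.

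**Figure D2:**
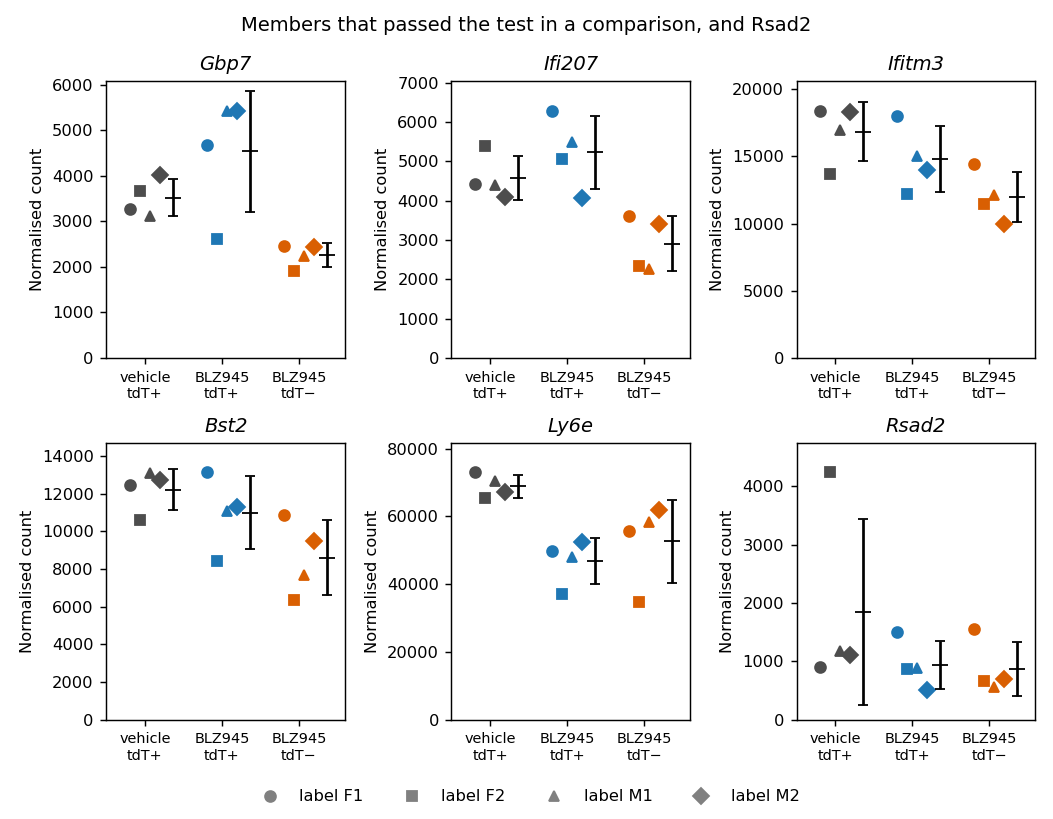
Normalised counts of the 5 members that were called in a comparison, and of Rsad2, in the 3 groups. Symbols give the mouse label of each library and bars the mean ± SD of 4 libraries, on axes that start at 0. For Gbp7 and Ifi207 the BLZ945 tdT- libraries lie below all others, and for Rsad2 the vehicle library F2 stands alone at 4241.

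As a list, the members leaned to lower values in tdT- cells. The fold change was negative for 42 of 52, and its median was -0.22 on the log2 scale, against 0.0036 over all genes tested. At an unadjusted p under 0.05, 9 members were lower (17.3%) and 0 higher in DESeq2, against 8.39% and 7.48% of all genes, and edgeR called 2 lower and 0 higher, with 8 lower and 0 higher at that level, against 8.12% and 6.16% of all genes. In 13 members (25%) the tdT- library was lower in all 4 mice, against 10.9% of all genes, and in 0 members it was higher in all 4, against 11.7%. These 13 were Irf7, Irf9, Ddx60, Trim30a, Slfn2, Ifitm3, Bst2, Ifi203, Ifi207, Ifi211, Gbp3, Gbp7 and Parp14. By mouse, 40, 40 and 41 members were lower in tdT- cells of F1, F2 and M1, and 25 in M2. Members share their regulators and are not independent, and the lean as such was not tested. In each comparison the median standard error was 0.31 for members and 0.51 over all genes. Members thus reach a given p at smaller fold changes, and the shares over all genes are not matched for counts. The median was -0.13 without the BLZ945 tdT- library F2 and -0.13 without the BLZ945 tdT+ library F1, which left 32 members negative.

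By role, the medians of the log2 fold change lay between -0.14 for the IFIT and other antiviral genes and -0.40 for the IFI200 family. In the IFI200 family 4 of 5 members were negative, among them Ifi203 at -0.94 ± 0.48 (adjusted p = 0.308, DESeq2), whose tdT- library M1 held 139 normalised counts against 1093 to 1675 in the other 3. All 5 PARP, ubiquitin ligase and nuclear body genes were negative, with Parp9 lowest at -0.78 ± 0.33 (adjusted p = 0.166). Parp14, a mono-ADP-ribosyltransferase, had groups that did not overlap, with 1227 to 1301 in tdT+ and 316 to 1083 in tdT- cells, yet an adjusted p of 0.464 in DESeq2. With Gbp7 and Ifi207 it made 3 members whose groups did not overlap with tdT- lower, against 0 with tdT- higher, and the background was 4.79% and 4.56% of all genes. Slfn2 missed the threshold at -0.44 ± 0.15 (adjusted p = 0.0622).

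Classical members did not pass the test, and their 95% intervals are given. These rest on the DESeq2 standard errors and are too narrow if those are too small here. For Isg15 the log2 fold change was -0.34 with a 95% interval of -0.89 to 0.22, for Ifit1 -0.25 with -0.95 to 0.45, and for Oas1a -0.14 with -0.58 to 0.30. For 30 of the 52 members the interval lay within 1 log2 unit of 0 in either direction, against 4319 of 13724 genes tested. The interval was wide for Mx1, from -1.05 to 1.87. Ifi44, a cytoplasmic interferon-induced protein, had a positive log2 fold change of 1.21 ± 0.63 (adjusted p = 0.327, DESeq2). It was at 979, 822 and 1121 in tdT- cells of F2, M1 and M2 against 185, 237 and 191 in tdT+ cells, but at 212 against 742 in F1. Differentially expressed genes (DEGs), which are called and also have a shrunken log2 fold change of 1 or more in either direction, made up 0 of the 52 members and 2.25% of all genes.

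**Figure D3:**
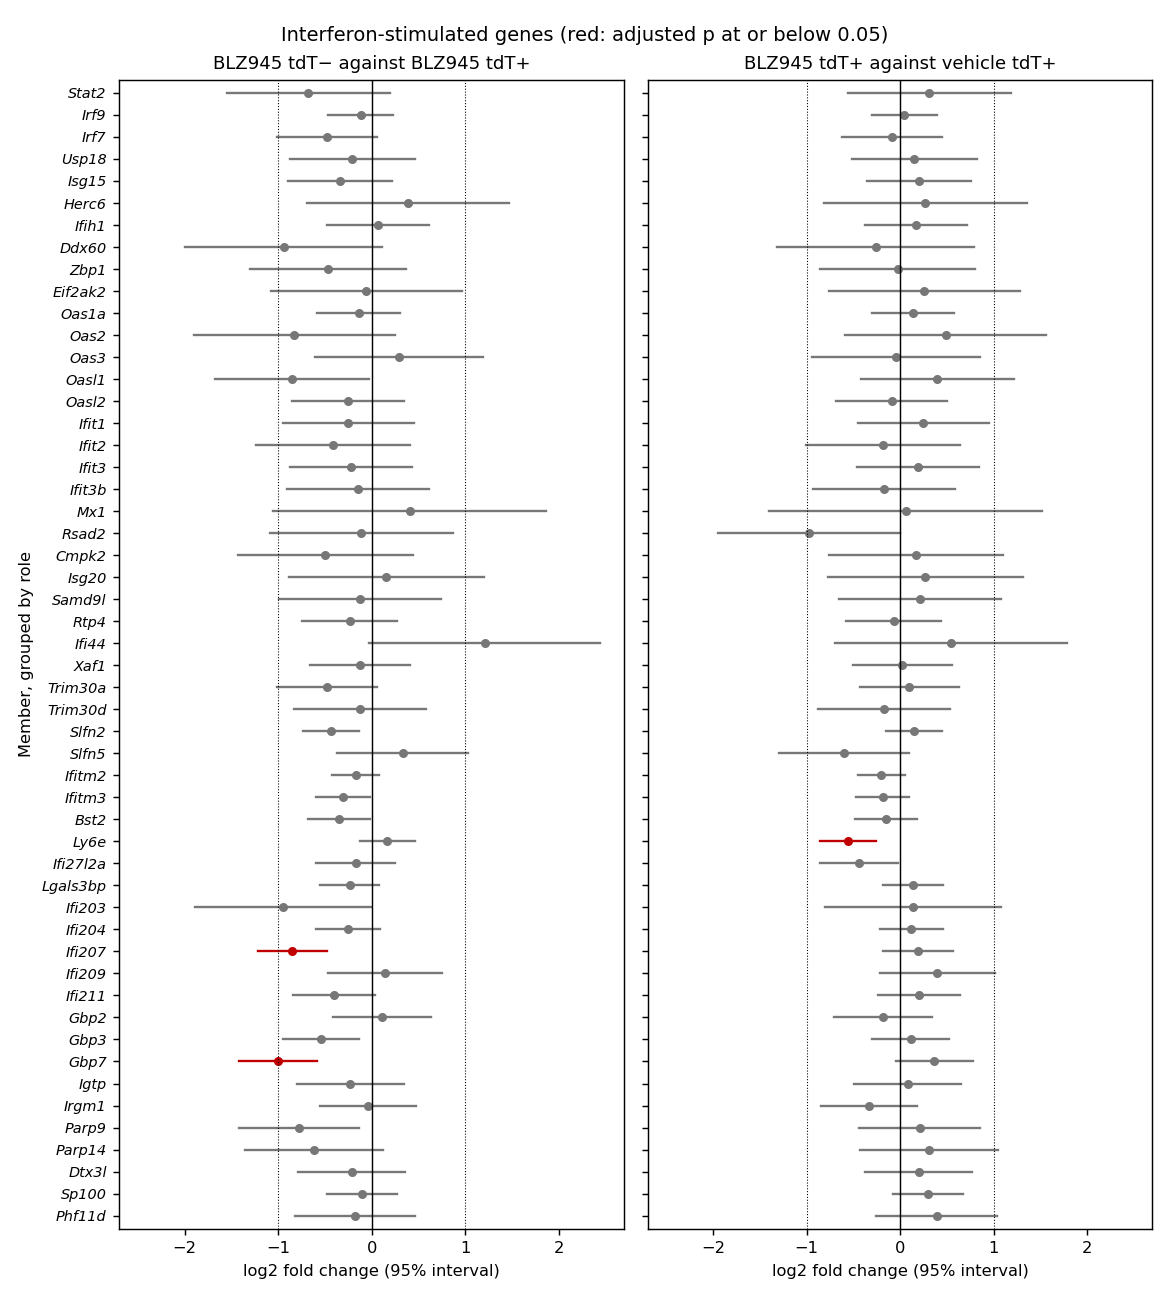
Log2 fold change of each of the 52 members with its 95% interval, for BLZ945 tdT- against BLZ945 tdT+ cells on the left and BLZ945 tdT+ against vehicle tdT+ cells on the right. Red marks members called by DESeq2. On the left Gbp7 and Ifi207 are red and 42 of 52 points lie below 0, and on the right Ly6e is red.

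BLZ945 tdT+ cells were then compared with vehicle tdT+ cells, which asks whether labelled sdCAMs carried a lasting change 8 weeks after the inhibitor. It shares the BLZ945 tdT+ libraries with the first comparison. Of the 52 members, 1 was called lower and 0 higher, with a background of 0.474% and 0.481% of all genes. The member was Ly6e (chromosome 15, 74826900 to 74831752, + strand). It was at 72955, 65346, 70313 and 67112 normalised counts in the vehicle libraries F1, F2, M1 and M2 and at 49800, 37072, 47893 and 52482 in the BLZ945 tdT+ libraries. The groups did not overlap, which held with BLZ945 tdT+ lower for 3.14% of all genes and higher for 3.58%, and for 1 and 0 members. The log2 fold change of Ly6e was -0.56 ± 0.15 with an adjusted p of 0.0302 in DESeq2, but 0.343 in edgeR, so the call is one of DESeq2 alone. The call was lost without any single one of 6 libraries (vehicle F1, M1 or M2, or BLZ945 tdT+ F1, F2 or M1), with adjusted p of up to 0.151. With the label as a replicate block, DESeq2 called 1 member lower and 0 higher, against a background of 1.2% and 1.63%, and edgeR called 0 members and 0 genes.

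The rest of the list was centred near 0 in this comparison. The median log2 fold change was 0.14 against 0.03 over all genes, 34 members were positive and 18 negative, and the median was -0.0043 without the BLZ945 tdT+ library F1 and 0.064 without vehicle F1. At an unadjusted p under 0.05, DESeq2 gave 2 members lower, Ly6e and Ifi27l2a (3.85%, against 3.39% of all genes), and 0 higher, and edgeR, which called 0 in either direction (background 0.0146% lower and 0.051% higher), also gave 2 lower and 0 higher. Of the 6 membrane and secreted members, 5 had a negative fold change, with Ifi27l2a at -0.44 ± 0.21 (adjusted p = 0.558), and Lgals3bp, a secreted glycoprotein, was at 0.14 ± 0.16. All 5 IFI200 genes and all 5 PARP, ubiquitin ligase and nuclear body genes had positive values, of at most 0.40 and 0.39. For 34 members the 95% interval lay within 1 log2 unit of 0, against 4857 of 13724 genes tested. The lowest fold change was that of Rsad2 (viperin), an enzyme that makes a chain-terminating nucleotide, at -0.98 ± 0.50 (adjusted p = 0.615). Its vehicle libraries were at 904, 4241, 1171 and 1103, so the vehicle mean was carried by F2. DEGs were 0 of 52 members and 0.168% of all genes.

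BLZ945 tdT- cells were last compared with vehicle tdT+ cells. This comparison shares its tdT- libraries with the first and its vehicle libraries with the second, so its values are not independent of theirs. Of the 52 members, 4 were called lower (7.69%) and 0 higher, against a background of 3.49% and 3.27%. Besides Gbp7 and Ifi207 these were Ifitm3 and Bst2. Gbp7 was at 3263, 3667, 3125 and 4026 in vehicle libraries and had a log2 fold change of -0.64 ± 0.21 (adjusted p = 0.0403). Ifi207 was at 4411, 5397, 4389 and 4105 and had one of -0.65 ± 0.19 (adjusted p = 0.0129). For both, all tdT- libraries lay below all vehicle libraries.

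Ifitm3 (chromosome 7, 140589499 to 140590683, - strand) was at 18398, 13726, 16996 and 18265 normalised counts in vehicle libraries and at 14438, 11474, 12131 and 9939 in BLZ945 tdT- libraries. The groups overlapped, since the vehicle library F2 lay below the tdT- library F1. The log2 fold change of Ifitm3 was -0.49 ± 0.15 (adjusted p = 0.0158). Bst2 (chromosome 8, 71986899 to 71990100, - strand) was at 12470, 10607, 13082 and 12720 in vehicle and at 10882, 6384, 7696 and 9503 in tdT- libraries. Here again vehicle F2 lay below tdT- F1. The log2 fold change of Bst2 was -0.50 ± 0.17 (adjusted p = 0.0428). In BLZ945 tdT+ libraries Ifitm3 was at 14817 ± 2439 and Bst2 at 10994 ± 1931 (SD, n = 4), and neither passed the test against the other groups there.

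None of the 4 was called by edgeR, whose adjusted p lay between 0.0615 for Ifi207 and 0.125 for Bst2. EdgeR called 0 members in either direction, against a background of 1.79% lower and 1.46% higher. At an unadjusted p under 0.05 it gave 11 members lower and 1 higher, against 7.99% and 6.59% of all genes. DESeq2 gave 11 lower (21.2%) and 1 higher (1.92%) at that level, against 8.01% and 8.22% of all genes. Without the BLZ945 tdT- library F2, Gbp7 and Bst2 lost their calls (adjusted p = 0.105 and 0.114, DESeq2), while Ifi207 and Ifitm3 kept theirs. Over the 12 libraries left out in turn, the call was lost 8 times for Gbp7, 7 for Bst2, 4 for Ifitm3 and 2 for Ifi207. With the label as a replicate block, which here joins different animals, DESeq2 called 8 members lower (15.4%) and 0 higher, against a background of 4% and 3.4%. EdgeR with this block called 0 lower and 0 higher, against 0.35% and 0.408%.

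The list again leaned down, with 41 of 52 members negative and a median of -0.29 against 0.031 over all genes. The median was -0.19 without the BLZ945 tdT- library F2, -0.14 without M1 and -0.18 without vehicle F2. All 6 membrane and secreted members were negative, with a median of -0.44. Ifi27l2a was at -0.61 ± 0.21 (adjusted p = 0.0613) and Ifitm2, a close relative of Ifitm3, at -0.37 ± 0.13 (adjusted p = 0.0564). The groups of 3 members did not overlap with tdT- lower and of 0 with tdT- higher, against 4.87% and 4.82% of all genes. Ly6e was the third, at 55543, 34724, 58425 and 61742 in tdT- libraries (log2 fold change -0.39 ± 0.15, adjusted p = 0.112). Ifi44 had the highest value at 1.75 ± 0.63 (adjusted p = 0.0711), with vehicle libraries at 382, 258, 64.1 and 224 and 3 of 4 tdT- libraries above all of them. DEGs were 0 of 52 members and 2.55% of all genes.

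Within the BLZ945 groups, the members moved together from mouse to mouse. In tdT+ cells of F1, 45 of 52 members lay above their group mean, with a median deviation of 0.29 on the log2 scale, and F1 was the highest of the 4 libraries for 31 members. In tdT+ cells of F2, 8 of 52 lay above the mean, with a median of -0.26, and F2 was the lowest library for 29. Over all genes tested the shares above the mean were 53.2% in F1 and 52.7% in F2.

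The tdT- libraries of these mice leaned the same way, with 39 of 52 members above the mean in F1 and 15 of 52 in F2, at medians of 0.27 and -0.24. Across the 52 members, the deviations in the tdT+ and tdT- library of a mouse correlated at -0.24, 0.19, -0.16 and -0.056 in F1, F2, M1 and M2, as a description over genes that share these libraries. In M1 and M2 the sorts went apart, with 31 and 15 members above the mean in tdT+ cells and 21 and 36 in tdT- cells. In vehicle libraries 22, 29, 24 and 33 members lay above the mean in F1, F2, M1 and M2, with medians between -0.063 and 0.086. The standard deviation of a member within its group had a median of 0.27, 0.35 and 0.60 on the log2 scale in vehicle, BLZ945 tdT+ and BLZ945 tdT- libraries, against 0.35, 0.34 and 0.46 over the 8559 genes in the same range of counts. The tdT- members were thus the most scattered.

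Single members show this. Oasl2, an OAS-like protein, was at 4725 in tdT+ cells of F1 and at 2180 to 2564 in the other 3 BLZ945 tdT+ libraries, and Ifit1 was at 1677 against 922 to 1010. Zbp1, a sensor of Z-form nucleic acids that can trigger necroptosis, was at 1230 in tdT- cells of F1 and at 378 to 521 in the other tdT- libraries. Usp18, the protease that removes Isg15 and dampens receptor signalling, was at 2653, 915, 2170 and 917 in tdT- cells of F1, F2, M1 and M2, so it was high in M1 as well as in F1.

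**Figure D4:**
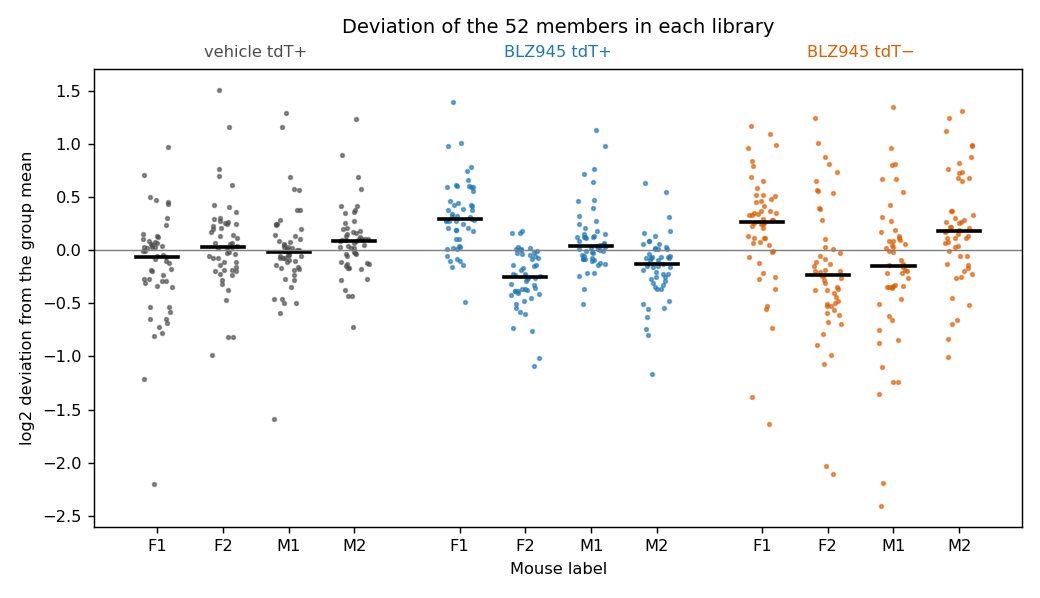
Each point is 1 of the 52 members and shows how far its log2(normalised count + 1) in a library lies from the mean of that group, by mouse label. Horizontal bars are medians. In both BLZ945 sorts the median is above 0 in F1 (0.29 and 0.27) and below 0 in F2 (-0.26 and -0.24).

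Upstream of the members, the ligands were nearly absent and the receptors were expressed. Of 14 interferon genes listed, 12 had 0 counts in all libraries. The others were Ifnb1 (interferon beta), with 18 raw counts in vehicle F1 and 25 in BLZ945 tdT+ F1 and 0 elsewhere, and Ifnk (interferon kappa), with 67 in BLZ945 tdT+ F2 alone. A count of 0 allows up to 3 counts, which correspond to 2.597 to 3.16 normalised counts per library, and the near-identical interferon alpha genes lose reads that map to several of them. The receptors Ifnar1 and Ifnar2 were at 3935 ± 802 and 4419 ± 443 normalised counts in vehicle libraries (SD, n = 4), and Ifngr2 at 5803 ± 609, and none of them was called in any comparison. Ifnlr1, the receptor chain for interferon lambda, did not exceed 18.05 normalised counts in any library.

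Of 32 pathway genes tested outside the list, 3 were called higher and 0 lower in BLZ945 tdT- against BLZ945 tdT+ cells, and 4 and 0 in tdT- against vehicle cells. These were 9.38% and 12.5% of the pathway genes called higher. The backgrounds over all genes were those given for the members, 2.86% and 3.27% called higher and 3.51% and 3.49% lower. For edgeR they were 1.04% and 1.46% higher and 1.71% and 1.79% lower. At unadjusted p under 0.05, DESeq2 gave 5 (15.6%) higher and 2 (6.25%) lower in the first comparison, against 7.48% and 8.39% of all genes. In the other it gave 6 (18.8%) higher and 1 (3.1%) lower, against 8.22% and 8.01%. EdgeR gave 4 and 1 in the first, against 6.16% and 8.12%, and 5 and 1 in the other, against 6.59% and 7.99%. In BLZ945 tdT+ against vehicle cells 0 were called by DESeq2 or edgeR, and at an unadjusted p under 0.05 each gave 1 lower and 0 higher. The background at that level was 3.39% lower and 4.72% higher in DESeq2, and 3.11% and 3.84% in edgeR. Irf5, a transcription factor downstream of Toll-like receptors, was at 5109, 4234, 4191 and 3852 in BLZ945 tdT+ cells of F1, F2, M1 and M2 and at 6466, 5616, 6278 and 6361 in tdT- cells. All 4 tdT- libraries lay above all 8 tdT+ libraries. The log2 fold change of Irf5 was 0.51 ± 0.13 against BLZ945 tdT+ (adjusted p = 0.00197) and 0.47 ± 0.13 against vehicle (adjusted p = 0.0054). Irf8, a factor of the monocyte and microglial lineages, was at 7547, 9017, 6042 and 6093 in BLZ945 tdT+ and 9313, 8982, 12419 and 11689 in tdT- cells, with tdT+ F2 inside the tdT- range. Its log2 fold changes were 0.56 ± 0.15 (adjusted p = 0.00624) and 0.50 ± 0.15 against vehicle (adjusted p = 0.022).

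Sting1, the adaptor that couples cytosolic DNA sensing to interferon induction, was at 5521, 7042, 4873 and 5550 in BLZ945 tdT+ and at 6851, 6999, 14799 and 9178 in tdT- cells. The groups overlapped through tdT+ F2, and tdT- M1 stood highest. Its log2 fold change was 0.72 ± 0.22 against BLZ945 tdT+ (adjusted p = 0.0175) and 0.90 ± 0.22 against vehicle (adjusted p = 0.00108). Ifngr1, the ligand-binding chain of the interferon-gamma receptor, was at 27554, 27202, 26334 and 24317 in vehicle and 33190, 29373, 42336 and 37279 in tdT- cells, and was called against vehicle with 0.43 ± 0.10 (adjusted p = 0.000842). Against BLZ945 tdT+ cells, Irf5, Irf8 and Sting1 stayed called without the tdT- library F2. Only Irf5 was called without the BLZ945 tdT+ library M1, Sting1 was not called without tdT+ F1, tdT+ M2 or tdT- M1 either, and Tlr7, a sensor of single-stranded RNA, was called in its place without tdT- M1. In edgeR, Sting1 against vehicle was called (adjusted p = 0.0464) and the other calls were not. The 5 microglia markers moved in the same direction as these 4 genes. Their sum, like the counts of Sting1, Irf8 and Ifngr1, was highest in tdT- cells of M1, and its part in these values was not tested.

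**Figure D5:**
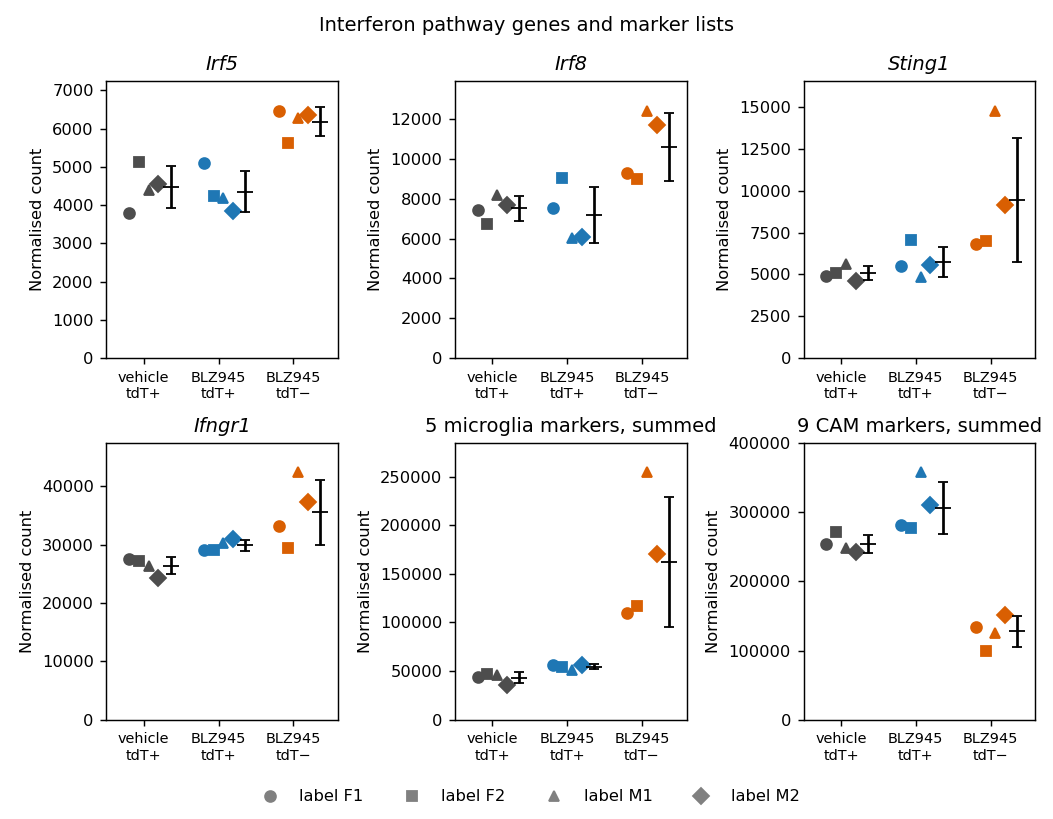
Normalised counts of 4 pathway genes and the summed counts of 5 microglia and 9 sdCAM markers, with symbols by mouse label and bars for the mean ± SD of 4 libraries, on axes that start at 0. The means of Irf5, Irf8, Sting1 and Ifngr1 are highest in BLZ945 tdT- cells, where the microglia markers sum to 109513 or more and the sdCAM markers to 151836 or less.

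An interaction term tested whether the difference between tdT- and tdT+ cells of BLZ945 mice depended on the letter F or M (female or male). EdgeR called 0 of the 52 members and 0% of all genes, with 2 members at an unadjusted p under 0.05 against 6.09% of all genes. DESeq2 called 0 members and 2.89% of all genes, with 5 members at that level against 11.9%. Each letter had 2 mice per group.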

How the data were processed

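The authors sorted CD206+ cells and made SMART-Seq mRNA LP libraries with PCR amplification per the labels, so the limits given for counts of 0 cover counting error only. The deposited values are raw counts per gene. Per the file headers and the submitters' processing notes, the authors aligned reads with STAR 2.7.11a and counted exons of a filtered GENCODE M33 annotation (GRCm39) with featureCounts 2.0.6, without strand and without multi-mapping reads. Columns were assigned by library number, since 1 vehicle column carried the number of M2 beside the label M1.

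Genes with at least 10 counts in at least 4 of 12 libraries were kept. The main test was the Wald test of DESeq2 1.42.0 in R 4.3.3 (two-sided, fitted to the 12 libraries with group as its term and the default size factors), adjusted by Benjamini-Hochberg over all genes. Log2 fold changes are unshrunken with their standard errors, and apeglm 1.24.0 was used for the DEG rule. DESeq2 gave no adjusted p for 355, 91 and 91 genes in the 3 comparisons, 0 of them members. EdgeR 4.0.16 (quasi-likelihood F-test, TMM factors) served as an alternative, as were other filters, TMM factors in DESeq2, fits of 8 libraries, a replicate block, the letter as a covariate and leaving out each library. Scripts were tested on data simulated with edgeR dispersions, in which DESeq2 called unchanged genes above its nominal rate and edgeR did not. Replicate libraries differed by far more than sampling noise (chi-square of at least 49.7 per degree of freedom in 18 pairs).

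The pairing of BLZ945 libraries comes from the mouse labels. Deviations of the tdT+ and tdT- library of a label correlated at 0.0035 to 0.094 across 8559 genes. With the same-labelled vehicle library, from another animal, the range was 0.029 to 0.07 for BLZ945 tdT+ and -0.02 to 0.074 for BLZ945 tdT-. These correlations therefore do not show the pairing. Members, gene lists and tests were chosen with earlier results of these data known. Test values were given by rule for called members and called pathway genes, and levels for the leading member of each role group, the receptors and detected ligands. Other members with test values were chosen after their values were seen. Promoters came from RefSeq (GRCm38.p6) and transcripts from GENCODE M21, matched by symbol.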

Additional observations from a re-analysis of the deposited data

Results flagged for a closer look

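Of 201 sets of 4 libraries (each member, 9 pathway genes, 5 marker sums and the mean of the members, per group), 1 was at 0 throughout (Ifnlr1 in BLZ945 tdT+ cells) and 200 were checked, of which 17 held a library whose gap to the nearest of the others exceeded Dixon's 95% critical value as a share of the range. Chance alone flags about 1 set in 20. Of the 17, 13 were members, 9 of these in the BLZ945 mouse F1.

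In BLZ945 tdT+ cells of F1, Oasl2 stood apart at 4725 normalised counts, Ifit1 at 1677, Ifi44 at 742, Trim30d, an interferon-induced TRIM protein, at 1447 and Ifi204, an IFI200 protein, at 4612, all above the other 3 libraries. In BLZ945 tdT- cells of F1, Zbp1 at 1230, Rsad2 at 1562, Ifitm2 at 6827 and Ifi27l2a at 5728 were the highest. The summed red blood cell markers were at 14845 in tdT+ and 100.1 in tdT- cells of F1. They were also high, at 15807, in tdT+ cells of F2, where most members lay below their group mean.

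Rsad2 was at 4241 in vehicle F2 against 904 to 1171 in the others, Samd9l, a restriction factor for poxviruses, at 1943 in vehicle M1 against 1052 to 1202, and Oas2 at 744 in BLZ945 tdT+ M1 against 386 to 434. Lgals3bp was low at 7221 in BLZ945 tdT- F2 against 11396 to 12045.

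The summed neutrophil (423109), red blood cell (36171) and Ly6C-high monocyte markers (39198) were far above the others in BLZ945 tdT- F2, and neutrophil markers were at 56.2 in BLZ945 tdT+ F2 against at most 4.2.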

How the results depend on the processing

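Over all alternatives run, no log2 fold change of a called member changed sign, 99 kept their call and 41 lost it, and 198 counts stayed within 1.5 times the main count while 46 did not. In BLZ945 tdT- against BLZ945 tdT+ cells, edgeR gave 1 DEG (Gbp7) and 0 pathway genes called. The DEG rule was applied there to the edgeR log2 fold change, without apeglm shrinkage. The unshrunken DESeq2 fold change also gave 1 DEG, so both differ from the main rule in the same way. With the replicate block, DESeq2 called 5 members lower and 1 pathway gene, and edgeR 0 and 0. Leaving out a library gave 2 to 5 members lower (5 without tdT- F1), 0 to 1 higher (Ifi44 without tdT+ F1, Ly6e without tdT- F2), 0 to 1 DEGs and 1 to 4 pathway genes (1 without tdT+ M1). In BLZ945 tdT+ against vehicle cells, 0 members were lower with edgeR, without a filter or with the replicate block in edgeR, and leaving out a library gave 0 to 1 lower and 0 to 1 higher (Gbp7 without tdT+ F2). In BLZ945 tdT- against vehicle cells, edgeR called 0 members lower and 1 pathway gene (Sting1). The replicate block gave 8 members lower and 1 DEG (Ddx60) in DESeq2, and 0 lower and 0 pathway genes in edgeR. The letter as a covariate gave 1 member higher (Ifi44) and 2 DEGs (Ddx60 and Ifi44). Leaving out a library gave 1 to 8 members lower (1 without vehicle F1, M1 or M2, 2 without tdT- M1, 8 without tdT- F1), 0 to 1 higher, 0 to 2 DEGs and 3 to 5 pathway genes. The causes of these shifts were not tested. The vehicle mice share labels with the BLZ945 mice but are other animals, and the labels shown state no litter or day. The block in the comparisons with vehicle therefore joins different animals whose relation is not known. Library names carry the word pre in all vehicle libraries and Post in all BLZ945 libraries, without an explanation. What these words stand for cannot be told apart from treatment. Members with few counts, such as Mx1, had 95% intervals that reached past 1 log2 unit, and differences of that size were not detectable there.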
